A study of Mus musculus with 37 samples.

Results

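This account covers 40 genes that encode receptors for monoamines, acetylcholine and corticotropin-releasing hormone (CRH) in the mouse hippocampus. They were chosen by family from the 48795 genes of the count table, but with earlier results of these data known. The list holds 13 serotonin receptor genes, 5 dopamine, 8 adrenergic and 5 muscarinic receptor genes, 7 nicotinic acetylcholine receptor subunits and the 2 CRH receptors. The bulk mRNA-seq libraries came from the hippocampus of 3 control and 3 Kdm1a-ifKO male mice of the C57BL/6J strain, and each library is 1 mouse. Kdm1a (also called LSD1) is a demethylase that removes methyl groups from lysines of histone H3. In Kdm1a-ifKOs, a Camk2a-creERT2 transgene deleted floxed Kdm1a after tamoxifen in young adults, so that the gene was lost in forebrain principal neurons but not in the interneurons, glia and vessels of the same tissue. Controls, labelled WT, also received tamoxifen and, per the study's methods, were littermates without Cre. A separate ChIA-PET library, which lists pairs of DNA sites joined at the architectural factor CTCF, came from sorted Camk2a+ hippocampal nuclei of tamoxifen-treated WT males. Per the study's methods, the mice used for sorting carried Camk2a-creERT2 and a Sun1-GFP reporter of nuclei. Unlike the RNA controls, they thus had Cre.

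Monoamines reach the hippocampus from small nuclei of the brainstem, and acetylcholine mainly from the basal forebrain, whereas CRH is also made locally by interneurons. Most of the receptors couple to G proteins: Gs raises cyclic AMP, Gi/o lowers it and opens potassium channels, and Gq/11 activates phospholipase C. Nicotinic receptors and the serotonin receptor encoded by Htr3a are ion channels gated by the transmitter itself. Different hippocampal cell types carry different receptors, and in bulk tissue more RNA per cell cannot be told apart from more cells that hold it.

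The libraries held 18985542 to 19469947 counts, and 34 of the 40 genes passed the filter on low counts. Kdm1a itself had 79.5, 81.1 and 79.6 CPM (counts scaled to equal library size by the trimmed mean of M-values) in the 3 controls and 39.3, 36.9 and 38.4 CPM in the 3 Kdm1a-ifKOs, a log2 fold change (log2FC) of -1.07 ± 0.06 (SE). The groups did not overlap (exact permutation test, two-sided, p = 0.1, the smallest that 3 against 3 libraries allow). Control 3 and Kdm1a-ifKO 2 stood apart from the other 4 libraries on the second principal component, which held 16.6% of the variance. The first component held 50.2% and separated the genotypes. Without both of those libraries, 9 receptor genes were called higher, against 6.17% of all genes tested in that fit, and 2 lower (Htr2c and Adrb1), against 3.32%.

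In controls, receptor transcripts spanned a wide range. In TPM (the transcript share after dividing by exon length), 33 of the 40 genes reached 1 TPM or more. Chrm1, the main muscarinic receptor of pyramidal neurons, was highest with a level of 181 TPM ± 9.13 (SD, n = 3), above 94.8% of the tested genes. Adra1d, an alpha-1 adrenergic receptor, followed with 88.5 TPM ± 7.78, then Chrm3, a muscarinic receptor coupled to Gq/11, with 45.6 TPM ± 1.27. Chrnb2, the beta subunit of the most widespread neuronal nicotinic receptor, was next with 38.1 TPM ± 1.16. For each of these 4 genes, the control libraries did not overlap those of the next gene in the order. Htr1a with 34.6 TPM ± 2.62 and Chrm4, a muscarinic receptor coupled to Gi/o, with 32.4 TPM ± 3.54 did overlap. Crhr1, the principal CRH receptor of the brain, had 22.2 TPM ± 1.20. Drd5, a dopamine receptor coupled to Gs, had the highest level of its family with 15.7 TPM ± 0.402, above Drd1 with 5.54 TPM ± 0.441 and Drd2 with 2.22 TPM ± 0.550. Chrna3, which had the largest log2FC of the tested receptors, had a control level of only 0.652 TPM ± 0.119, above 2.31% of the tested genes.

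**Figure D1:**
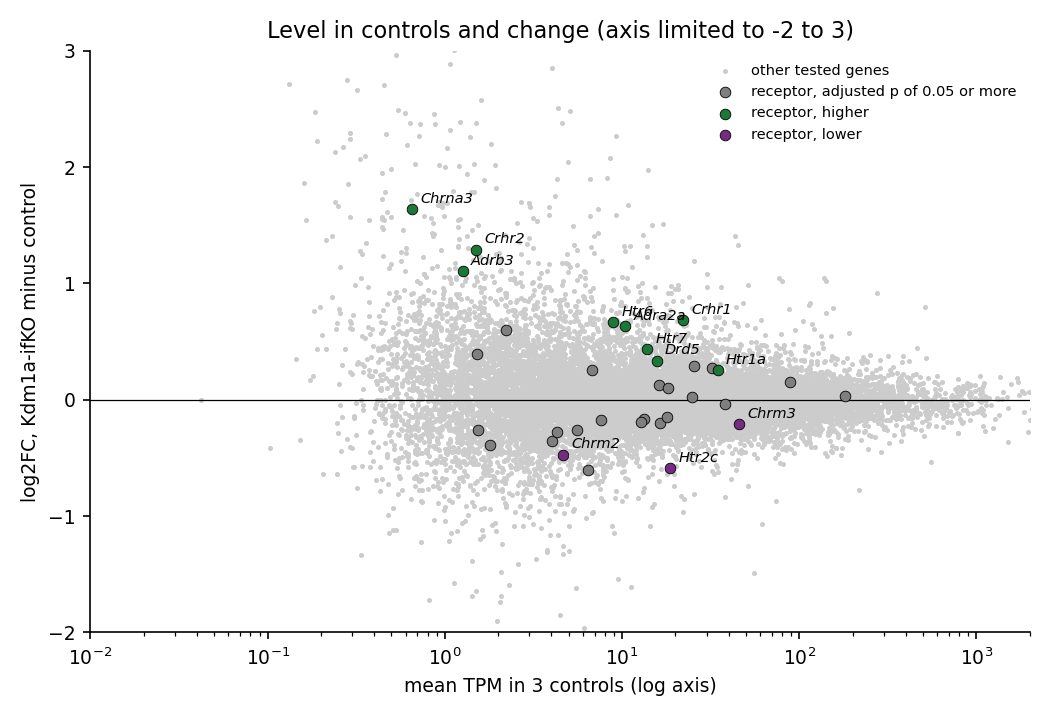
Mean TPM in the 3 controls (log axis) against log2FC, Kdm1a-ifKO minus control, for the 34 tested receptor genes (large points, coloured by call at adjusted p under 0.05) and all other tested genes (grey; those beyond the plotted range are not drawn). Chrna3, Crhr2 and Adrb3 combine the 3 largest log2FC of the receptors with control levels of 0.652, 1.49 and 1.26 TPM, whereas Chrm1 and Adra1d at the right lie near 0.

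Kdm1a-ifKOs had more transcript of 9 receptor genes and less of 3. The genes that rose were both CRH receptors (Crhr1 and Crhr2), the serotonin receptors Htr1a, Htr6 and Htr7, the dopamine receptor Drd5, the adrenergic receptors Adra2a and Adrb3 and the nicotinic subunit Chrna3. The serotonin receptor Htr2c and the muscarinic receptors Chrm2 and Chrm3 fell. By the quasi-likelihood test of edgeR, with p-values adjusted over all 16799 tested genes (Benjamini-Hochberg), 35.3% of the 34 tested receptors had an adjusted p under 0.05, against 8.85% of all tested genes (6.04% higher and 2.82% lower). At that threshold, 6 receptors (Htr6, Adra2a, Adrb3, Chrna3, Crhr1 and Crhr2) also had a log2FC over 0.5, as did 3.15% of all tested genes. Before adjustment, 17 receptors had p under 0.05. The groups did not overlap for 13 tested receptors that were higher and 5 that were lower in Kdm1a-ifKOs, against 15.7% and 14.4% of all tested genes. The median log2FC of the tested receptors was 0.07 against -0.0034 over all tested genes, and 19 of the 34 values were above 0.

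**Figure D2:**
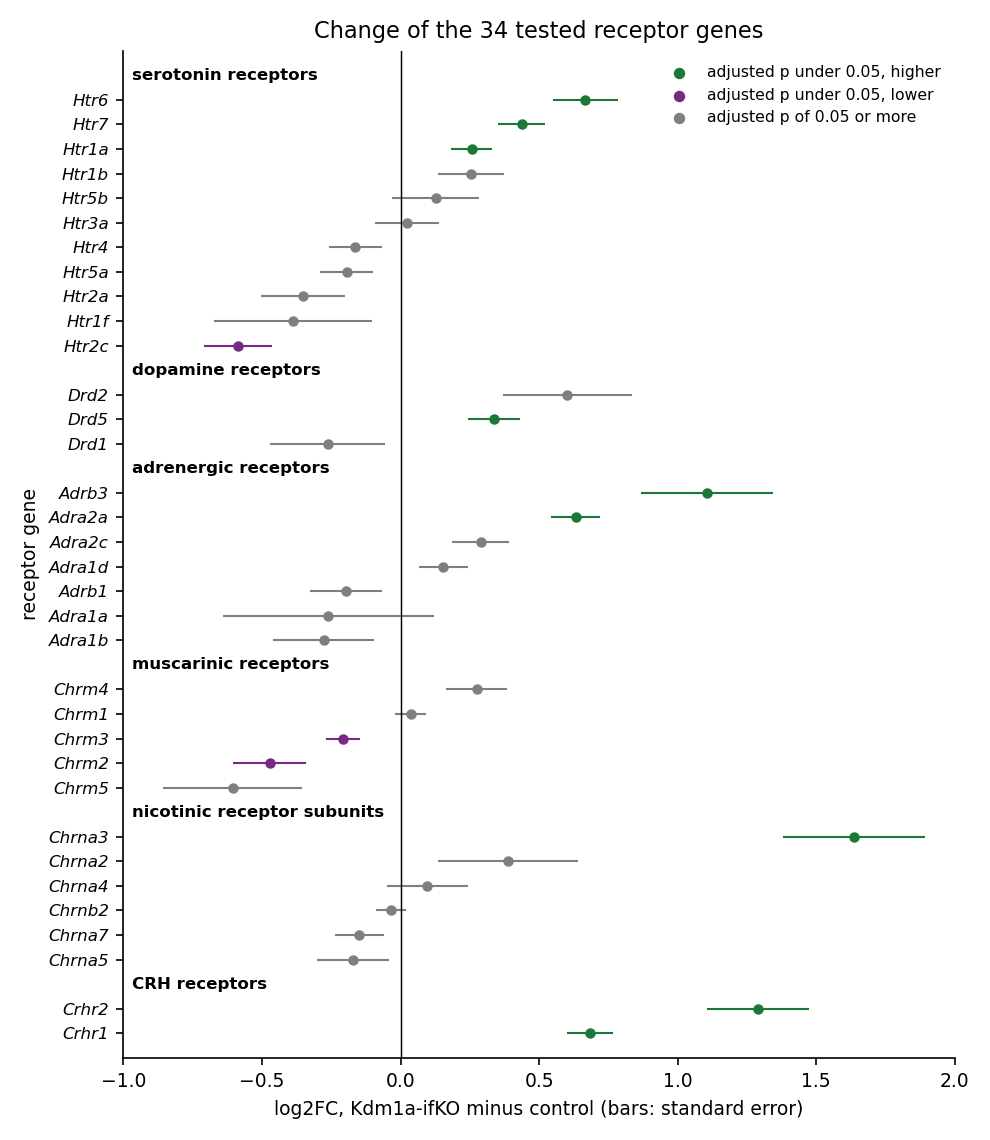
The log2FC (Kdm1a-ifKO minus control) of the 34 tested receptor genes, one point per gene with its standard error, grouped by transmitter and coloured by call at adjusted p under 0.05. Both CRH receptors lie to the right of 0, and among serotonin receptors values run from 0.67 for Htr6 to -0.59 for Htr2c.

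Both CRH receptor genes rose. Gene positions below are on mm10. Crhr1 (ENSMUSG00000018634, chr11:104132855-104175523), which couples to Gs, had 13.8, 14.4 and 13 CPM in controls and 21, 21.8 and 23.4 CPM in Kdm1a-ifKOs. Every Kdm1a-ifKO library was thus above every control, with a log2FC of 0.68 ± 0.08 (SE; edgeR, Benjamini-Hochberg adjusted p = 0.00016, the smallest among the receptors). Crhr2 (ENSMUSG00000003476, chr6:55090049-55133016), which binds the urocortins with higher affinity than CRH, had 1.93, 1.73 and 2.1 CPM in controls and 3.91, 5.18 and 5.03 CPM in Kdm1a-ifKOs. The groups did not overlap either, and the log2FC was 1.29 ± 0.18 (edgeR adjusted p = 0.000626). Crhr2 is also expressed outside principal neurons, and choroid plexus tissue can be carried along with a hippocampal dissection. Of the 12 choroid plexus markers, 9 were tested and 1, Kl, was called (log2FC 1.28). The most abundant marker of that tissue, Ttr, had 611, 204 and 131 counts in controls and 64, 123 and 159 in Kdm1a-ifKOs. The summed CPM of the list ran from 43.2 to 69.8 in controls and from 73.0 to 80.6 in Kdm1a-ifKOs, of which Kl alone contributed 22.5 to 26.9 CPM and 56.4 to 60.6 CPM. No marker of the list was at 0 in all libraries, and its part in the Crhr2 result was not tested.

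Among the genes for CRH family ligands, only Crh passed the filter on low counts, with a log2FC of 0.28 ± 0.23 and an adjusted p of 0.505 by edgeR. Crhbp, which encodes a secreted protein that binds and sequesters CRH, fell from 32.7, 35.2 and 34 CPM to 27.1, 29.3 and 23.3 CPM (log2FC -0.35 ± 0.08, edgeR adjusted p = 0.019). Transcripts of both receptors were thus higher and those of the binding protein lower in the same libraries.

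Of the 7 tested adrenergic receptor genes, 2 rose. Adra2a (ENSMUSG00000033717, chr19:54044151-54048982), the alpha-2A receptor that couples to Gi/o and restrains noradrenaline release at terminals, had 12.3, 13.7 and 12.1 CPM in controls and 18.6, 20.9 and 19.6 CPM in Kdm1a-ifKOs. The groups did not overlap, and the log2FC was 0.63 ± 0.09 (edgeR adjusted p = 0.000512). Adrb3 (ENSMUSG00000031489, chr8:27225776-27250616), the beta-3 receptor best known from adipose tissue, rose from 1.26, 1.10 and 0.860 CPM to 2.73, 2.18 and 2.05 CPM. Its log2FC of 1.11 ± 0.24 (edgeR adjusted p = 0.0113) rested on 16 to 24 counts per control library, and without Kdm1a-ifKO 1 the adjusted p was 0.0586. Adrb3 overlaps the antisense gene Gm45470, which had 19, 21 and 35 counts in controls and 36, 46 and 35 in Kdm1a-ifKOs. The sources used here do not say whether counting used strand, so reads of both genes cannot be told apart. Adra1d, the adrenergic gene with the highest level, had 42.6, 45.8 and 38.5 CPM in controls and 50.5, 41.1 and 49.8 CPM in Kdm1a-ifKOs. These overlapped, with a log2FC of 0.15 ± 0.09 (edgeR adjusted p = 0.314). The other tested adrenergic genes did not pass either: Adra2c had a log2FC of 0.29 ± 0.10, and Adrb1, Adra1a and Adra1b had values between -0.28 and -0.20.

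The 11 tested serotonin receptor genes went in both directions. Htr6 (ENSMUSG00000028747, chr4:139061108-139075570) couples to Gs and is found in forebrain neurons. It had 5.12, 5.25 and 5.32 CPM in controls and 8.38, 8.27 and 8.27 CPM in Kdm1a-ifKOs. With so little spread within either group, the log2FC was 0.67 ± 0.12 (edgeR adjusted p = 0.00309). Htr7 (ENSMUSG00000024798, chr19:35958734-36057507), also a Gs-coupled receptor, rose from 11.5, 12.0 and 12.0 CPM to 15.7, 15.8 and 16.6 CPM (log2FC 0.44 ± 0.08, edgeR adjusted p = 0.00598). Htr1a (ENSMUSG00000021721, chr13:105443639-105448122), a Gi/o-coupled receptor abundant on hippocampal pyramidal neurons, had 35.5, 41.1 and 40.6 CPM in controls and 46.3, 43.8 and 49.9 CPM in Kdm1a-ifKOs. The groups did not overlap, and the log2FC was 0.26 ± 0.07 (edgeR adjusted p = 0.0457). The call was lost in 6 of 13 alternative fits, with adjusted p up to 0.19, while the log2FC stayed between 0.19 and 0.33.

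Htr2c (ENSMUSG00000041380, chrX:146962513-147197277), a Gq/11-coupled receptor, had 38.7, 47.3 and 45.2 CPM in controls and 29.6, 33.7 and 24.0 CPM in Kdm1a-ifKOs. Its log2FC was -0.59 ± 0.12 (edgeR adjusted p = 0.0209), and the call was lost without control 3 or without Kdm1a-ifKO 1, with an adjusted p of at most 0.111. Htr2c is also among the most abundant receptor genes of choroid plexus epithelium, whose marker Ttr varied between libraries as given above. Slc17a6, the vesicular glutamate transporter of thalamus and other subcortical areas, fell in the same libraries from 17.4, 22.2 and 19.1 CPM to 6.74, 12.4 and 8.42 CPM (log2FC -1.09, edgeR adjusted p = 0.0215). It was the only one of the 8 listed thalamus markers called lower, while Prkcd was called higher, and the summed CPM of that list overlapped between groups (138 to 148 in controls and 140 to 156 in Kdm1a-ifKOs). The part of these cells in the Htr2c result was not tested. Htr2a, a Gq/11-coupled receptor, had values that did not overlap either (log2FC -0.35 ± 0.15) but did not pass the test (edgeR adjusted p = 0.173), and Htr3a, the channel found on interneurons, had a log2FC of 0.02 ± 0.12.

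Of the 3 tested dopamine receptor genes, Drd5 (ENSMUSG00000039358, chr5:38319367-38322518) rose. It had 12.1, 12.3 and 12.8 CPM in controls and 17.3, 14.6 and 15.2 CPM in Kdm1a-ifKOs, all above the controls, with a log2FC of 0.34 ± 0.09 (edgeR adjusted p = 0.0409). The call was lost in 7 of 13 alternative fits. Drd2 had a larger log2FC of 0.60 ± 0.23 and groups that did not overlap, but at 19 to 44 counts per library it did not pass (edgeR adjusted p = 0.129). Drd1 had a log2FC of -0.26 ± 0.21 with overlapping groups. Drd5 overlaps an antisense gene, Gm26560, that had 8 to 9 counts in controls and 9 to 20 in Kdm1a-ifKOs, against 232 to 239 and 288 to 337 for Drd5.

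Muscarinic receptor genes were the only class in which every called member fell. Chrm2 (ENSMUSG00000045613, chr6:36388084-36528414), a Gi/o-coupled receptor that acts as an autoreceptor on cholinergic terminals and is also found in interneurons, had 6.85, 6.93 and 7.52 CPM in controls and 4.68, 5.69 and 4.98 CPM in Kdm1a-ifKOs (log2FC -0.47 ± 0.13, edgeR adjusted p = 0.0432). Chrm3 (ENSMUSG00000046159, chr13:9875486-10360847) had 69.2, 73.0 and 73.1 CPM in controls and 61.1, 58.9 and 66.3 CPM in Kdm1a-ifKOs (log2FC -0.21 ± 0.06, edgeR adjusted p = 0.0488). The groups did not overlap for either gene, yet both lay near the threshold, and the calls were lost in 9 and 10 of 13 alternative fits. Of the 10 interneuron markers, Vip, Npy and Kcnc2 were also lower (log2FC -0.46, -0.31 and -0.24), and the summed CPM of that list ran from 1053 to 1114 in controls and from 994 to 1035 in Kdm1a-ifKOs. Over all tested genes, 2.82% were called lower. The other 7 markers did not pass, and 3 of them had a log2FC above 0 (Lhx6 0.23, Lamp5 0.09 and Sst 0.07). Pvalb, Gad2, Gad1 and Slc32a1 were below 0 (-0.23, -0.16, -0.09 and -0.04). Of the 10 markers, 5 were lower and 2 higher without overlap between groups, against 14.4% and 15.7% of all tested genes. The part of interneurons in the Chrm2 result was not tested. Chrm1 had 311, 283 and 293 CPM in controls and 317, 289 and 304 CPM in Kdm1a-ifKOs. These groups overlapped, with a log2FC of 0.04 ± 0.05 (edgeR adjusted p = 0.739). Chrm2 overlaps the non-coding gene 9330158H04Rik on the other strand, which had 4 to 9 counts per library. Chrm4 and Chrm5 had a log2FC of 0.27 ± 0.11 and -0.61 ± 0.25, and neither passed.

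Among the 6 tested nicotinic subunit genes, Chrna3 (ENSMUSG00000032303, chr9:55010111-55026562) rose, and it had the largest log2FC of all tested receptors. This alpha subunit forms the ganglionic nicotinic receptor and is densest in brain in the medial habenula. Its level was 0.941, 0.683 and 0.967 CPM in controls and 2.78, 2.08 and 3.23 CPM in Kdm1a-ifKOs, or 18, 13 and 18 counts against 54, 41 and 63. The groups were well apart, with a log2FC of 1.64 ± 0.26 (edgeR adjusted p = 0.00131). Of the 8 medial habenula markers, 7 were tested and 1, Nwd2, was called lower (log2FC -0.47). The summed CPM of the list ran from 59.6 to 69.5 in controls and from 48.0 to 54.6 in Kdm1a-ifKOs, and its defining marker Pou4f1 had 0, 0 and 2 counts against 1, 2 and 3. Nwd2 alone made up 39.3 to 48.2 CPM of that sum in controls and 30.3 to 33.3 CPM in Kdm1a-ifKOs. Of the 7 tested markers, 4 had a log2FC above 0 (Gng8 0.47, Syt15 0.27, Tac2 0.17 and Gpr151 0.15), none past the test. The part of habenular cells in the Chrna3 result was not tested. The subunits that make up the common hippocampal nicotinic receptors gave smaller values: Chrna4 had a log2FC of 0.10 ± 0.15, Chrna7 of -0.15 ± 0.09 and Chrnb2 of -0.03 ± 0.06, none past the test. Chrnb2, at 79.1, 83.1 and 78.7 CPM in controls and 74.7, 80.9 and 79.6 CPM in Kdm1a-ifKOs, overlaps Adar on the other strand, and reads of the shared stretch cannot be told apart.

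**Figure D3:**
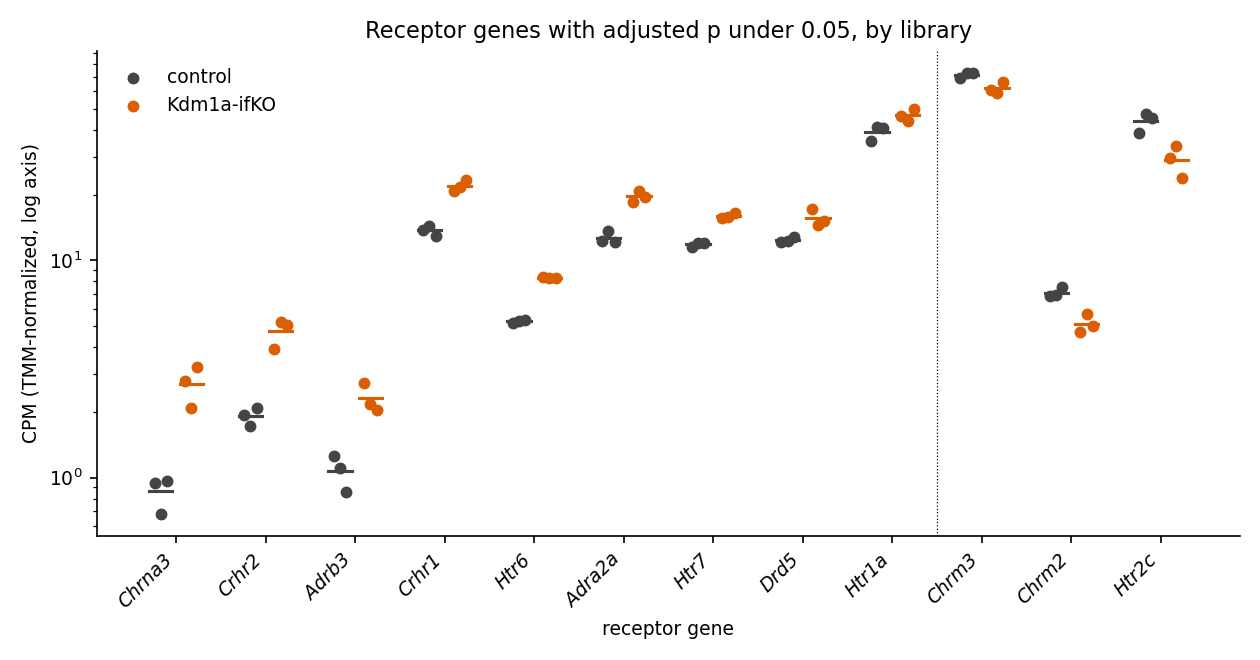
CPM (log axis) of the 12 receptor genes with adjusted p under 0.05, one point per library (3 controls and 3 Kdm1a-ifKOs) and a bar at each group's mean, with the 9 higher genes left of the dotted line and the 3 lower ones right of it. No group overlaps its counterpart, and Chrna3, Crhr2 and Adrb3 have controls from 0.683 to 2.1 CPM.

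The 6 genes that were not tested had few reads. Htr1d had 1, 0 and 0 counts in controls and 1, 8 and 4 in Kdm1a-ifKOs, and Chrnb4, the partner subunit of Chrna3, had 4, 4 and 4 against 10, 4 and 8. Htr2b, Drd3, Drd4 and Adra2b had 0 to 5 counts per library. With no filter on low counts, the fit across all genes by edgeR gave Htr1d an adjusted p = 0.0528, and none of these genes passed. Htr1d was also the only one of them under an unadjusted 0.05, both in that fit and by DESeq2, which gave no adjusted value for any of them.

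Grouped by the G protein through which they act, the receptors that rose were mostly coupled to Gs. This grouping was made after the values had been seen, and so it is a description with no test. Over all tested genes, 6.04% were called higher and 2.82% lower. Of the 9 Gs-coupled receptors, all were tested and 6 rose (Htr6, Htr7, Drd5, Adrb3, Crhr1 and Crhr2), with a median log2FC of 0.44. The call of Drd5 was lost in 7 of 13 alternative fits and that of Adrb3 in 1. The remaining 3 (Htr4, Drd1 and Adrb1) had values from -0.26 to -0.16 and did not pass. The summed CPM of the Gs-coupled receptors ran from 80.1 to 84.5 in controls and from 99.5 to 101 in Kdm1a-ifKOs. Of 9 tested Gi/o-coupled receptors, 2 rose (Htr1a and Adra2a) and 1 fell (Chrm2), with a median log2FC of 0.26. The summed CPM of all 13 listed Gi/o-coupled receptors did not overlap between groups either, with 117 to 126 in controls and 138 to 145 in Kdm1a-ifKOs. In the Gs and Gi/o classes alike, 6 tested receptors were higher without overlap between groups, against 15.7% of all tested genes. Of 8 tested Gq/11-coupled receptors, Htr2c and Chrm3 fell and 6 did not pass, with a median of -0.27. Of 7 tested ion channel subunits, Chrna3 rose and 6 did not pass, with a median of 0.02. Htr5b was not assigned to a class.

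**Figure D4:**
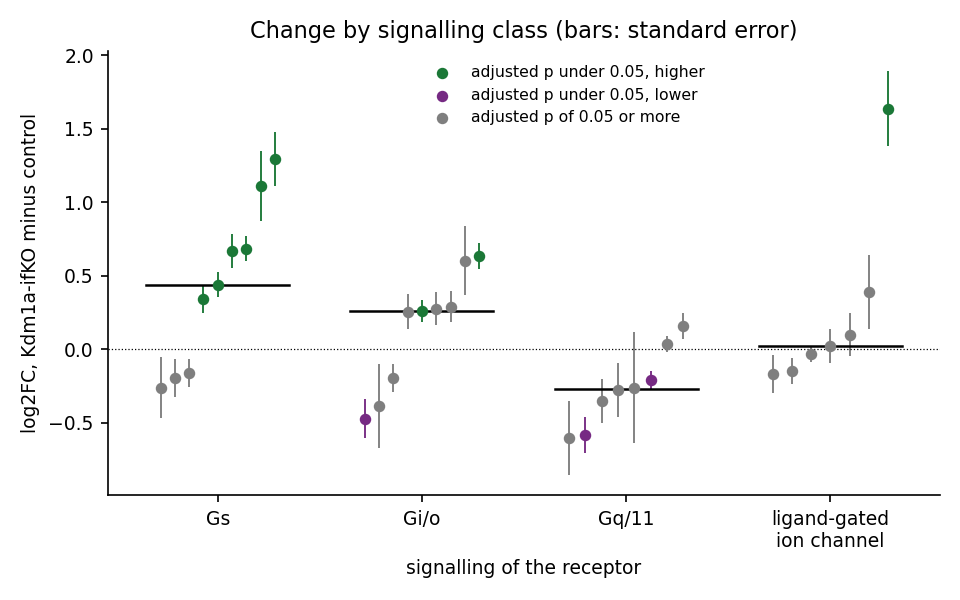
The log2FC (Kdm1a-ifKO minus control) of the tested receptor genes by signalling class, one point per gene with its standard error and a black line at the class median (0.44 for Gs, 0.26 for Gi/o, -0.27 for Gq/11 and 0.02 for ion channels). Called genes are coloured, and 6 of the 9 Gs-coupled receptors are called higher, against 6.04% of all tested genes.

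Downstream of the receptors, 28 genes for G proteins and effectors were listed and all were tested. Of these, 4 rose and 2 fell, against 6.04% and 2.82% of all tested genes. Without overlap between groups, 5 were higher and 10 lower, against 15.7% and 14.4% of all tested genes, and the median log2FC was -0.06. The summed CPM of the list ran from 6008 to 6195 in controls and from 5717 to 5912 in Kdm1a-ifKOs. Gnal, an alpha subunit that acts like Gs, and the adenylyl cyclases Adcy5 and Adcy6 had a log2FC of 0.22 ± 0.05, 0.24 ± 0.05 and 0.22 ± 0.06. Plcb3, a phospholipase C activated by Gq/11, rose most, from 23.8, 24.8 and 24.6 CPM to 37.3, 41.4 and 38.3 CPM (log2FC 0.68 ± 0.07, edgeR adjusted p = 2.66e-05). Prkar2b, a regulatory subunit of protein kinase A, and Kcnj3, a potassium channel opened by Gi/o-coupled receptors, fell, with a log2FC of -0.25 ± 0.07 and -0.22 ± 0.06. Gnas, the gene of Gs itself, had a log2FC of -0.04 ± 0.07 and did not pass. Of 18 genes for receptor regulators and accessory proteins, all tested, 2 rose and 2 fell, against the same 6.04% and 2.82%. Ppp1r1b (log2FC 0.39), a phosphatase inhibitor acting below dopamine receptors, and Lynx1 (0.32), a protein that binds nicotinic receptors, rose. Rgs2 (-0.22) and Rgs4 (-0.43), which shorten signalling by Gq/11 and Gi/o, fell. Of 10 further nicotinic and serotonin channel subunits, 2 had enough reads to be tested, and neither was called by edgeR (1 had an unadjusted p under 0.05).

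Of 21 genes that make, store, take up or break down the transmitters, 12 were tested and 5 rose, against 6.04% of all tested genes. Slc18a2, the vesicular transporter that loads monoamines, rose from 6.75, 9.19 and 8.38 CPM to 18.6, 14.0 and 19.3 CPM (log2FC 1.09 ± 0.14, edgeR adjusted p = 0.000695). Dbh, which converts dopamine to noradrenaline, had 10, 4 and 3 counts in controls and 18, 17 and 18 in Kdm1a-ifKOs (log2FC 1.57 ± 0.42, edgeR adjusted p = 0.0339). Slc29a4, a low-affinity monoamine transporter, Maob, which degrades amines, and Ache, which hydrolyses acetylcholine, had a log2FC of 0.40 ± 0.08, 0.32 ± 0.07 and 0.39 ± 0.05. Th, the first enzyme of catecholamine synthesis, had a log2FC of -0.56 ± 0.34 and did not pass. Slc18a3, the vesicular acetylcholine transporter, was too low to be tested, with 2, 0 and 0 counts in controls and 16, 10 and 7 in Kdm1a-ifKOs, and it is named after its values were seen. The gene that contains it, Chat, had 1, 3 and 3 counts against 0, 0 and 1.

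The tissue label was checked against markers of 10 cell types or regions. All 10 markers of excitatory neurons, all 10 of interneurons and all 8 each of astrocytes, oligodendrocytes, microglia and endothelial cells reached 1 TPM in controls. So did all 7 striatal markers, 7 of 8 for thalamus, 6 of 8 for medial habenula and 7 of 12 for choroid plexus. Reaching this level thus does not set the hippocampus apart from those tissues. Among neuronal and glial markers, Neurod6 of excitatory neurons fell, and Slc1a3 and Sox9 of astrocytes and Cx3cr1, Tmem119 and Csf1r of microglia rose. The summed microglial level ran from 342 to 370 CPM in controls and from 390 to 499 CPM in Kdm1a-ifKOs. All 8 microglial and all 8 astrocyte markers had a log2FC above 0, against 49.1% of all tested genes. By edgeR, 8 of the microglial and 4 of the astrocyte markers had an unadjusted p under 0.05. By edgeR, none of the oligodendrocyte or endothelial markers was called, and none had an unadjusted p under 0.05. Of the striatal markers, Penk rose (log2FC 0.45). The part of glial cells in the receptor results was not tested.

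Of the 24 tested genes nearest on either side of the 12 called receptors, Otop1 and Tmco4 were called by edgeR (8.33%, against 8.85% of all tested genes). Otop1, a proton channel gene, lies 15.1 kb from Drd5. It was nearly silent in controls, with 1, 0 and 1 counts, and reached 82, 81 and 67 counts in Kdm1a-ifKOs (edgeR adjusted p = 3.15e-07). Tmco4 lies 1.94 kb from Htr6 and had a log2FC of 0.59 ± 0.15 (edgeR adjusted p = 0.0259), close to the 0.67 of Htr6. Chrna3 lies within a cluster of 3 nicotinic subunit genes on chromosome 9, with Chrna5 at 2.33 kb and Chrnb4 at 1.59 kb. Chrna5, at 110, 113 and 118 counts in controls and 102, 109 and 102 in Kdm1a-ifKOs, had a log2FC of -0.17 ± 0.13 and did not pass (edgeR adjusted p = 0.456), beside the log2FC of 1.64 of Chrna3.

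CTCF loops describe the surroundings of these genes in WT neurons, with no Kdm1a-ifKO counterpart in the file. The library listed 27786 loops of at least 3 paired-end tags (PETs), with a median of 5. A loop anchor lay within 10 kb of 22 of the 40 receptor genes (55%), against 56.9% of all tested genes. Of the 9 receptors that rose, 7 had such a loop, with a median of 3 loops. The median was 1 over all tested genes and 0 over the 22 tested receptors that were not called. These differences were not tested, and gene length was not taken into account. Crhr1 had 9 loops, the strongest of which had 120 PETs and reached towards Arf2. Htr6 had 11 loops, the most of any receptor, with at most 30 PETs. Crhr2, Htr7 and Htr2c had no listed loop, which in 1 library does not show that none exists.

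At the nicotinic cluster, anchors with 43 and 31 PETs lay on Chrna3, and the one with 31 PETs covered its start. It joined that start to a site 285 kb away within Nrg4, and weaker loops with 10 PETs in all reached Tmem266. Nrg4 and Tmem266 had a log2FC of 0.26 and 0.35 (edgeR adjusted p = 0.485 and 0.123). Next to Drd5, an anchor between Drd5 and Otop1 was joined to Slc2a9 with 37 PETs and to the vicinity of Wdr1 with 47 PETs. Neither Slc2a9 (log2FC -0.27) nor Wdr1 (-0.01) was called.

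**Figure D5:**
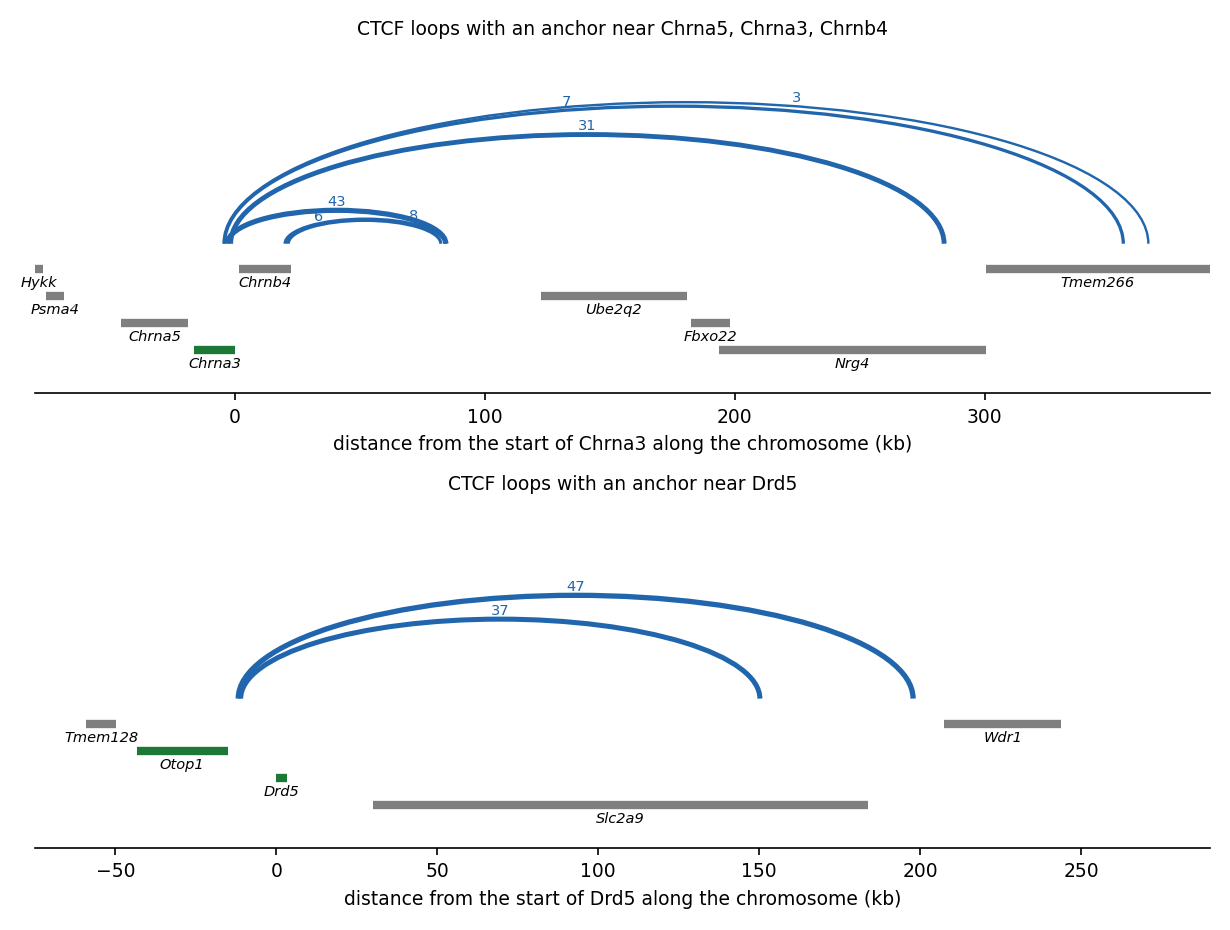
CTCF loops (blue arcs with their number of PETs; line width grows with it) around the cluster of Chrna5, Chrna3 and Chrnb4 (top) and around Drd5 (bottom), with tested genes and listed receptors as bars at their distance in kb from the start of Chrna3 or Drd5; green bars are genes called higher and grey bars genes not called or not tested. Chrna3 is green between grey neighbours under arcs of 43 and 31 PETs, and the arcs of 37 and 47 PETs start between Otop1 and Drd5, both green. Loops that leave the window are not drawn.

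The promoters below are shown because they differ in CpG content and in the CTCF anchor over them. They are 300-base RefSeq windows (assembly GRCm38.p6) around the annotated start, given 5′ to 3′ on the gene's strand, with CpG dinucleotides in capitals. Adra2a (chr19:54045009-54045308, plus strand) and Crhr1 (chr11:104132531-104132830, plus strand) are CpG-rich and lay under anchors. Chrna3 (chr9:55026513-55026812, minus strand) lay under an anchor as well, and Crhr2 (chr6:55132967-55133266, minus strand) is CpG-poor and did not.
Adra2a: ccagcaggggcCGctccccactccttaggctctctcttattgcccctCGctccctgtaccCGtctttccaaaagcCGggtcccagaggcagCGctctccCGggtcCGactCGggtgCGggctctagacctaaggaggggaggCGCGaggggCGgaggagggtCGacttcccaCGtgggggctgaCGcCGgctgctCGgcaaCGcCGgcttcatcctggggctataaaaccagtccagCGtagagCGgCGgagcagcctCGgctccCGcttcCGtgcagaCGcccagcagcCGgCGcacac
Crhr1: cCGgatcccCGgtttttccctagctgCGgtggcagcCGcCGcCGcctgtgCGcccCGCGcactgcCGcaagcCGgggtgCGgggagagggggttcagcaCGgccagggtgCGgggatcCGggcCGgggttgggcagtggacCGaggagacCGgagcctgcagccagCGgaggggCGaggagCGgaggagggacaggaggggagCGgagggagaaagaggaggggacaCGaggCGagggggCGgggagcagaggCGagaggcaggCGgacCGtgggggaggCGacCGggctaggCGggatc
Chrna3: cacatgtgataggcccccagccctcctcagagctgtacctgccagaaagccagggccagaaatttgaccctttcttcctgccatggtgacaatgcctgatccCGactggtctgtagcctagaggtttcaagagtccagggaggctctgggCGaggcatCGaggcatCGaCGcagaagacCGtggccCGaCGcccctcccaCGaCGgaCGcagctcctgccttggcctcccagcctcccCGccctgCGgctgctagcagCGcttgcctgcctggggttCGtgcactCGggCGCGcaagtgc
Crhr2: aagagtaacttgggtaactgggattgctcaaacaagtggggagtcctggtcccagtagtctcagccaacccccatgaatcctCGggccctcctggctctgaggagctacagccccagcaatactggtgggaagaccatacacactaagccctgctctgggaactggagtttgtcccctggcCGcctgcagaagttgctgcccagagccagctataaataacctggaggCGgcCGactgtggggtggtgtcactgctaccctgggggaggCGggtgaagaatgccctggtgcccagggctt

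The window of Adra2a held 28 CpGs, that of Crhr1 31, that of Chrna3 18 and that of Crhr2 5. Of the 40 receptor genes, 32 had an entry in the promoter table. Taking the most CpG-rich start of each gene, the 8 matched receptors that rose had a median of 28.5 CpGs (5 to 46), the 3 that fell had 11 (5 to 16), and the 15 matched receptors that did not pass had 23, against a median of 21 over the tested genes of the table. The highest count, 46, belonged to Htr7, and Htr2c had 5. Both Crhr2, which rose, and Htr2c, which fell, were thus CpG-poor. A CTCF anchor covered the promoter window of 4 of the 8 that rose (Adra2a with 43 PETs, Chrna3 with 31, Crhr1 with 18 and Htr6 with 3), of 3 of the 15 that did not pass, and of 15.7% of the tested genes of the table. The strong Adra2a anchor was joined over 1016 kb to a site near Gpam, whose log2FC was -0.10 (edgeR adjusted p = 0.416).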

How the data were processed

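Per the study's methods, the authors trimmed single-end poly-A reads (cutadapt 1.18), aligned them to mm10 (HISAT2 2.1.0), filtered on mapping quality and deposited raw counts per Ensembl gene (HTSeq 0.11.1), 1 column per mouse. The strand setting is not given in the sources used here. The authors processed the ChIA-PET reads with ChIA-PIPE on mm10 and deposited, as counts, the PETs of each loop with a CTCF peak at both anchors. From these, edgeR 4.0.16 (R 4.3.3) gave the tests: low counts filtered by its default rule, TMM scaling, a robust quasi-likelihood fit with genotype alone, and Benjamini-Hochberg adjustment over all tested genes. The standard error is the size of the log2FC over the square root of F. GENCODE gene models of the same build (48349 of 48795 genes matched) gave exon lengths and positions. The receptors, gene lists and markers were chosen with earlier results of these data known. Full values are given for receptors with adjusted p under 0.05 and for the receptor with the highest level in each class; listed context and marker genes are named where called, except 1 marker that is not reported here; other named genes were chosen after their values were seen. The fit was tested on simulated data. Alternatives were other normalizations, filters, DESeq2 1.42.0, a replicate block and each library left out. The other assays of the series were not used here.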

Additional observations from a re-analysis of the deposited data

How the results depend on the processing

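No receptor call changed direction under any alternative. Htr6, Htr7, Adra2a, Chrna3, Crhr1 and Crhr2 stayed under an adjusted p of 0.05 in all 13 alternatives run, and Adrb3 in 12. The count of receptors that rose was 7 with DESeq2, 7 with a replicate block, 10 with no filter on low counts (Adra2c was added) and 6 to 9 when each library was left out. The count that fell was less stable: 1 with DESeq2, 1 with upper-quartile normalization, 1 with a replicate block and 0 to 2 when each library was left out. It was 0 by edgeR without control 3 and without Kdm1a-ifKO 1, where 4 and 4 receptors were lower at an unadjusted p under 0.05 in each fit; the cause was not tested. Over all 13 alternative fits, 3.78% to 7.22% of all tested genes were called higher and 0.801% to 3.79% lower. The count was 1 without control 1 or control 2. Equal replicate numbers gave no sign of pairing the libraries, since the correlations of their deviations from the group means were -0.03, -0.09 and -0.14. Under unequal numbers, they were 0.157 for control 3 with Kdm1a-ifKO 2, 0.126 for control 1 with Kdm1a-ifKO 3 and 0.0603 for control 2 with Kdm1a-ifKO 1. The replicate block used equal numbers, and a pairing under other numbers was not tested. Leaving out control 3 and Kdm1a-ifKO 2 together was chosen after seeing the data. The 122 pairs of a receptor gene and a loop within 10 kb became 66 with an anchor on the gene body and 63 with at least 5 PETs, since both settings keep fewer loops. Leaving a library out leaves 2 in that group, and genes with under 30 counts per library, such as Adrb3 and Chrna3 in controls, are limited by depth. The p-values rest on 3 mice per group.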
